A study of Mus musculus with 6 samples.

Results

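The genes described here are 10 transcription factor genes of the heart muscle cell: Gata4, Gata5, Gata6, Nkx2-5, Hand1, Hand2, Mef2a, Mef2c, Mef2d and Irx4. They were chosen by gene symbol, not by a rule on their values, and are 10 of the 32245 symbols in the count files. These genes, and the lists of other genes set beside them below, were chosen with earlier results of these data known. Counts and medians of a list are descriptions, with no test of the list. The study asked what BMP2, a bone morphogenetic protein, does to transcription in neonatal mouse heart muscle cells, and how much of it passes through its receptors. Polyadenylated RNA of primary cardiomyocytes from wild type mouse hearts was read in 6 libraries. There were 3 groups of 2 libraries, namely BMP2 together with dorsomorphin (BMP2+DM), BMP2 alone, and phosphate-buffered saline (PBS). Dorsomorphin is a kinase inhibitor that blocks BMP type I receptors and also AMP-activated protein kinase. The sources used here give no strain, dose or duration, and no group analysed here received dorsomorphin without BMP2. The labels number the libraries of a group without tying them to separate dishes or litters, and the p-values measure the spread between these libraries, which may be technical.

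In the embryo, BMP signals reach the nucleus through SMAD proteins and help to start the cardiac programme, of which these factors are the working core. GATA4, GATA5 and GATA6 are zinc finger proteins, NKX2-5 and IRX4 are homeodomain proteins, HAND1 and HAND2 are basic helix-loop-helix proteins, and MEF2A, MEF2C and MEF2D are MADS-box proteins. They bind one another and the promoters of genes for contraction, natriuretic peptides and ion channels, and after birth they keep the muscle cell programme running. HAND2 belongs to the right ventricle and outflow tract, HAND1 to the left ventricle, and IRX4 to ventricular muscle.

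Promoter windows of 250 bases before the start of transcription, from RefSeq on GRCm38.p6, were found for 7 of the 10 genes, in 9 windows. The windows of Hand2 and Mef2a are shown because these are the 2 genes of the 10 that differed between BMP2 and PBS. The Hand2 window is chr8:57320733-57320982 on the plus strand, and the Mef2a window is chr7:67372859-67373108 on the minus strand. Both are written 5′ to 3′ and end at the base before the start.
Hand2: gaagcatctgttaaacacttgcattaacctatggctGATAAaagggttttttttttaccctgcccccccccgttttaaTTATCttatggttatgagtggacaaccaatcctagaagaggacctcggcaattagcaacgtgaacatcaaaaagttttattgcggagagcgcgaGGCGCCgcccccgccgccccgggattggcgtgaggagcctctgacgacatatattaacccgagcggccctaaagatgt
Mef2a: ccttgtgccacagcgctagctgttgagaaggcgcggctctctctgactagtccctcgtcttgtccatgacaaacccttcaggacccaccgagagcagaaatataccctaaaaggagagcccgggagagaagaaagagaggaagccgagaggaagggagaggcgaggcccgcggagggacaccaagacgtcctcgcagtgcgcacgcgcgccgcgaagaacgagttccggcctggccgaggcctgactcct
Capitals mark matches to the GATA core GATAA, read on both strands, at 214 and 172 bases before the start of Hand2, and to the GC-rich SMAD element GGCGCC at 78 bases. GGCGCC was found in 9.59% of all 32851 windows of this length and GATAA in 22.6%. Irx4 was the only other member with a window that holds GGCGCC, at 89 bases before its start. Besides Hand2, GATAA was found in 1 window of Mef2c, at 230 and 128 bases before its start. Matches to the SMAD half-site CAGAC (42.2% of windows) were found in another window of Mef2c and in that of Nkx2-5. The Mef2a window held no match to these motifs, to the E-box CANNTG (66.2%), to the TATA box TATAAA (12.4%) or to the MEF2 box (0.508%). A match is a string of letters in the reference sequence and not a measured binding site. The Hand2 window also holds E-boxes at 246 and 235 bases before the start, left in lower case, and none of its matches overlap.

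The libraries held 10140668 and 10106667 gene counts for BMP2+DM, 11132019 and 10362486 for BMP2, and 14366042 and 11652488 for PBS. BMP2 1 and PBS 1 stood apart in reads of ribosomal-repeat genes, at 2.10% and 1.31% of gene counts, against 0.0702% to 0.0928% in the other 4 libraries, so results are also given without them. The cultures carried the cardiomyocyte label in their transcripts: the 8 cardiomyocyte markers summed to 24900 and 25115 CPM (counts scaled to a common library size) with BMP2+DM, 23249 and 23021 with BMP2, and 27551 and 27196 with PBS. Against PBS, 7 of these 8 markers were lower with BMP2, and 0 were higher by edgeR, by unadjusted p or by DESeq2. Over all genes tested by edgeR, 9.29% were lower in this comparison and 6.55% higher. Markers of other cells were present too. The 8 fibroblast markers summed to 10138 and 10616 CPM with BMP2+DM, 11060 and 11323 with BMP2, and 11202 and 11907 with PBS. This sum joins genes that ran in opposite directions. Means with BMP2+DM, BMP2 and PBS were 3813, 2655 and 1831 CPM for Col3a1, and 3237, 4832 and 5319 for Col1a1. The 8 epicardial markers summed to 110.0 and 107.3 CPM with BMP2+DM, 101 and 100.1 with BMP2, and 176.5 and 174 with PBS. The 6 smooth muscle and pericyte markers summed to 1488 and 1534 CPM with BMP2+DM, 1326 and 1305 with BMP2, and 2230 and 2235 with PBS. Most of this sum was 1 gene, Acta2, with means of 1318 CPM with BMP2+DM, 1162 with BMP2 and 2085 with PBS. Of the 6, Acta2 and Cnn1 were lower with BMP2 than with PBS, and Kcnj8 and Abcc9 were higher. The sum therefore does not measure the number of smooth muscle cells. The 8 endothelial markers summed to 167 and 177 CPM with BMP2+DM, 250.1 and 235 with BMP2, and 264 and 271 with PBS. The sums of 4 endocardial, 7 leukocyte and 6 Schwann and neuronal markers stayed between 2.72 and 91.0 CPM, with Cytl1 and Th at 0. In bulk RNA, fewer cells of a type and less RNA per cell cannot be told apart, and the part of these shifts in the results below was not tested.

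Scaled to exon length, Gata4 was the most abundant of the 10 transcripts in all 3 groups and Gata5 the least. Levels per length are CPM per kilobase of merged exon from GENCODE vM21 (mm10, the GRCm38 build), given as mean ± SD over 2 libraries. Gata4 (chromosome 14, 63198922 to 63271692, minus strand) had 61.4 ± 1.4 CPM per kilobase with BMP2+DM, 70.1 ± 1.0 with BMP2 and 62.9 ± 2.4 with PBS. Hand2 came second and Nkx2-5 (chromosome 17, 26838664 to 26845009, minus strand) came next, at 27.3 with BMP2+DM, 32.7 with BMP2 and 30.2 with PBS. Mef2d, Mef2a, Gata6, Irx4 and Mef2c followed, between 26.7 and 3.55 CPM per kilobase in single libraries. Mef2a and Mef2c have merged exon lengths of 14681 and 15715 bases, which pool many transcript forms, so their level per length depends on forms that gene counts do not separate. The order was the same in all 3 groups except that Gata6 stood above Mef2a with PBS and below it with BMP2 and BMP2+DM. The ranges of Gata6 and Mef2a overlapped with PBS, as did those of Nkx2-5 and Mef2d with BMP2+DM. With BMP2 alone, the 2 libraries of every gene lay apart from those of its neighbours in the order.

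**Figure D1:**
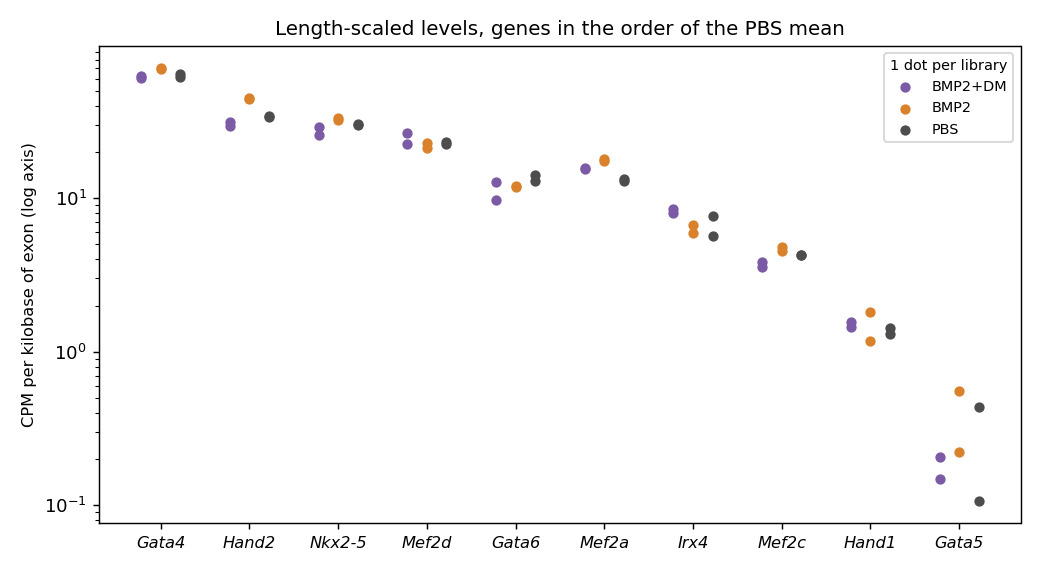
Length-scaled level (CPM per kilobase of merged exon, log axis) of each gene, 1 dot per library, for BMP2+DM, BMP2 and PBS. The group means of Gata4 are 61.4, 70.1 and 62.9 and no Gata5 value exceeds 0.553, and the order of the genes is nearly the same in each group.

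The GATA and HAND families were each led by a single member. Gata4 made up 81.6% to 85.9% of the summed length-scaled level of the 3 GATA genes across the 6 libraries. Hand2 made up 95.3% to 97.4% of the HAND pair. The MEF2 genes were more even: Mef2d held 53.8% and 58.0% of the MEF2 sum with BMP2+DM, 49.0% and 50.1% with BMP2, and 57.5% and 56.2% with PBS. The share of Mef2a was 37.6% and 33.7% with BMP2+DM, 40.0% in both BMP2 libraries, and 31.9% and 33.2% with PBS. Both BMP2 libraries thus lay above every other library in the share of Mef2a and below every other in that of Mef2d. Mef2c held 8.53% and 8.30% with BMP2+DM, 11% and 9.97% with BMP2, and 10.6% in both PBS libraries. As plain count ratios, there were 1.71 and 1.42 Mef2a counts per Mef2d count with BMP2+DM, 2.0 and 1.96 with BMP2, and 1.36 and 1.45 with PBS. Such a ratio shows that the genes changed unequally and not which of them moved.

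With BMP2, Hand2 and Mef2a were higher than with PBS and the other 8 genes did not pass the test. Called means an adjusted p below 0.05 by edgeR's quasi-likelihood test, adjusted over all 14378 genes tested. The 2 of 10 called higher compare with 6.55% of all genes tested. Of the 10, 0 were called lower, against 9.29% of all genes tested. At an unadjusted p below 0.05, 3 of the 10 were higher and 0 lower, and DESeq2 called the same numbers as edgeR, 2 higher and 0 lower. The share of all genes at that unadjusted p is not given. Unadjusted counts, here and elsewhere, are therefore not to be read against the shares of called genes. The median log2 fold change of the 10 was 0.13, beside 0.00 over all genes tested. The levels in the 2 groups did not overlap for 6 of the 10 genes, as for 55.9% of all genes tested.

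**Figure D2:**
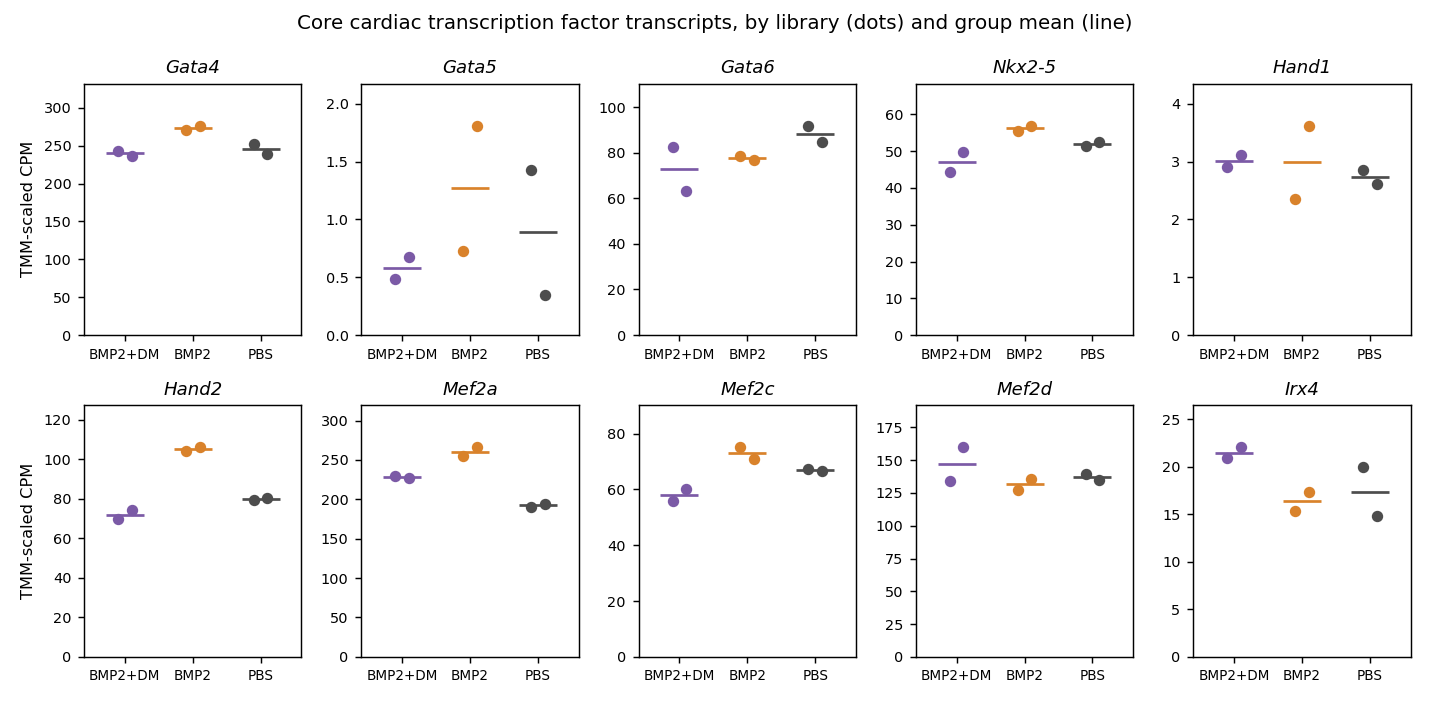
Level (TMM-scaled CPM, linear axes from 0) of each of the 10 genes by library (dots) with the group mean (line), for BMP2+DM, BMP2 and PBS. Hand2 has 104 and 106 CPM with BMP2 and lies at or below 80.4 in the other 4 libraries, and Mef2a is lowest with PBS.

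Hand2 (chromosome 8, 57320983 to 57324633, plus strand), the HAND factor of the right ventricle and outflow tract, had 104 and 106 CPM with BMP2, against 79.3 and 80.4 with PBS. Both BMP2 libraries were above both PBS libraries. The log2 fold change was 0.40 ± 0.083, or 1.32-fold, with edgeR's adjusted p = 0.00265. The call stood under 13 of 14 alternatives, with log2 fold changes of 0.39 to 0.43. It was lost without PBS 1 and BMP2 1 together, at an adjusted p of 0.14 by edgeR. The long noncoding gene Hand2os1 runs from the opposite strand and shares 461 exon bases, or 19.6%, of Hand2. The strand setting of the counting is not given in the sources used here, so to which gene reads of the shared bases belong is not known. The level of Hand2os1 may therefore not be independent of that of Hand2. Hand2os1 had 100.5 and 87.1 CPM with BMP2, against 90.2 and 77.3 with PBS. The groups overlapped, and its log2 fold change of 0.16 ± 0.097 was not called (edgeR's adjusted p = 0.305). Hand1 (chromosome 11, 57828705 to 57832818, minus strand), its left ventricular relative, rested on 26 and 38 counts with BMP2 and 40 and 30 with PBS. At this depth a change of Hand1 between -0.71 and 0.97 on the log2 scale lies within the 95% interval.

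Mef2a (chromosome 7, 67231163 to 67372858, minus strand), a MADS-box activator of muscle genes, had 254.5 and 266 CPM with BMP2, against 189.8 and 195 with PBS. The groups did not overlap. Its log2 fold change of 0.44 ± 0.056, or 1.35-fold, had edgeR's adjusted p = 2.37e-05. All 14 alternatives kept the call, with log2 fold changes of 0.40 to 0.47 and a highest edgeR adjusted p of 0.0227, without PBS 1 and BMP2 1. Mef2c (chromosome 13, 83504034 to 83667080, plus strand), the MEF2 factor needed for the embryonic ventricle and outflow tract, had 75.1 and 71.1 CPM with BMP2, against 67.2 and 66.5 with PBS. The groups lay apart but the log2 fold change of 0.13 ± 0.094 was not called (edgeR's adjusted p = 0.416). Mef2d (chromosome 3, 88142372 to 88172086, plus strand), known from mouse work as a MEF2 factor of the stress response of the adult heart, had 127 and 136 CPM with BMP2, against 139 and 135 with PBS. These ranges overlapped, and the 95% interval of the log2 fold change was -0.23 to 0.11.

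The GATA genes, Nkx2-5 and Irx4 were not called between BMP2 and PBS. Gata4, the main GATA activator of cardiac promoters, had 271 and 277 CPM with BMP2, against 252 and 239 with PBS. The groups did not overlap, and the log2 fold change was 0.16 ± 0.055 (edgeR's adjusted p = 0.064). Scaled to library totals without TMM factors, it was 0.18 and was called (edgeR's adjusted p = 0.0324). Gata6 (chromosome 18, 11052064 to 11085635, plus strand), which overlaps GATA4 in function in the heart, had 78.4 and 76.6 CPM with BMP2, against 91.9 and 84.8 with PBS. It ran the other way from Gata4, with the BMP2 libraries below the PBS libraries, and its log2 fold change of -0.19 ± 0.11 was not called (edgeR's adjusted p = 0.275). Gata5 (chromosome 2, 180325133 to 180334699, minus strand), the GATA factor of the endocardium, had only 8 and 19 counts with BMP2 and 20 and 4 with PBS. Its 95% interval, from -1.10 to 2.02 on the log2 scale, shows how little these counts can resolve. Nkx2-5, the homeodomain partner of GATA4, had 55.5 and 56.9 CPM with BMP2, against 51.4 and 52.5 with PBS, and its log2 fold change of 0.11 ± 0.11 had a 95% interval of -0.11 to 0.34. Irx4 (chromosome 13, 73260479 to 73269608, plus strand), the ventricular Iroquois factor, had 15.4 and 17.4 CPM with BMP2, against 19.9 and 14.8 with PBS, which overlap.

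With dorsomorphin added to BMP2, Hand2, Mef2c, Gata4 and Mef2a were lower than with BMP2 alone. The 4 of 10 called lower compare with 4.44% of all genes tested. Of the 10, 0 were called higher by edgeR or DESeq2, against 4.28% of all genes tested, and 1 was higher at an unadjusted p below 0.05. The median log2 fold change of the 10 was -0.19, beside 0.00 over all genes tested. The libraries did not overlap for 7 of the 10, as for 50.3% of all genes tested. Only the call of Hand2 stood under every alternative, and DESeq2 called 1 of the 10 lower. This comparison shares its BMP2 libraries with the one against PBS, so a gene that is high in those 2 libraries tends to move in opposite directions in the pair of comparisons.

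Hand2 had 69.6 and 74.2 CPM with BMP2+DM, against 104 and 106 with BMP2. Both BMP2+DM libraries were below both BMP2 libraries, and below both PBS libraries. The log2 fold change was -0.55 ± 0.085 (edgeR's adjusted p = 0.00036), and all 14 alternatives called it, at -0.59 to -0.51 with a highest adjusted p of 0.0398. Hand2os1 had 73.3 and 72.3 CPM with BMP2+DM, against 100.5 and 87.1 with BMP2. It was also lower, by a log2 fold change of -0.37 ± 0.099 (edgeR's adjusted p = 0.0274). There were 0.950 and 1.03 Hand2 counts per Hand2os1 count with BMP2+DM, 1.04 and 1.22 with BMP2, and 0.879 and 1.04 with PBS, and the PBS range overlapped those of both other groups. Hand1 had 2.90 and 3.11 CPM with BMP2+DM, against 2.36 and 3.62 with BMP2, which overlap.

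Mef2c had 55.8 and 60.0 CPM with BMP2+DM, against 75.1 and 71.1 with BMP2. Its libraries did not overlap, and the log2 fold change was -0.34 ± 0.096 (edgeR's adjusted p = 0.0355). Mef2a had 229.9 and 227 CPM with BMP2+DM, against 254.5 and 266 with BMP2, a log2 fold change of -0.19 ± 0.056 (edgeR's adjusted p = 0.0469). Gata4 had 244 and 236 CPM with BMP2+DM, against 271 and 277 with BMP2, a log2 fold change of -0.19 ± 0.055 (edgeR's adjusted p = 0.0382). All 3 genes lay lower in both BMP2+DM libraries, close to the threshold of the test. The calls of Mef2a and Mef2c were lost when any 1 of the 6 libraries was left out, with log2 fold changes of -0.22 to -0.16 and -0.39 to -0.29 over the 14 alternatives. That of Gata4 was lost without any 1 of BMP2+DM 1, BMP2+DM 2, BMP2 1 and BMP2 2, and stood without either PBS library, with log2 fold changes of -0.22 to -0.16 over all alternatives. Their highest adjusted p by edgeR over the alternatives were 0.292 for Mef2a, 0.308 for Mef2c and 0.224 for Gata4. The direction was kept under all 14 for each of the 3.

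Nkx2-5 had 44.2 and 49.8 CPM with BMP2+DM, against 55.5 and 56.9 with BMP2. Both BMP2+DM libraries were below both BMP2 libraries, with a log2 fold change of -0.26 ± 0.11 that was not called (edgeR's adjusted p = 0.163). Irx4 stood the other way, at 20.9 and 22 CPM with BMP2+DM against 15.4 and 17.4 with BMP2. Its libraries did not overlap, and the log2 fold change of 0.39 ± 0.17 was not called (edgeR's adjusted p = 0.196). Mef2d had 134 and 159.8 CPM with BMP2+DM, against 127 and 136 with BMP2, and Gata6 had 82.6 and 63.1 with BMP2+DM, against 78.4 and 76.6 with BMP2. Both genes overlapped between the groups, and BMP2+DM 1 and BMP2+DM 2 differed more from each other than the BMP2 libraries did. Gata5 had 5 and 7 counts with BMP2+DM, against 8 and 19 with BMP2, and its 95% interval ran from -2.82 to 0.61 on the log2 scale.

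**Figure D3:**
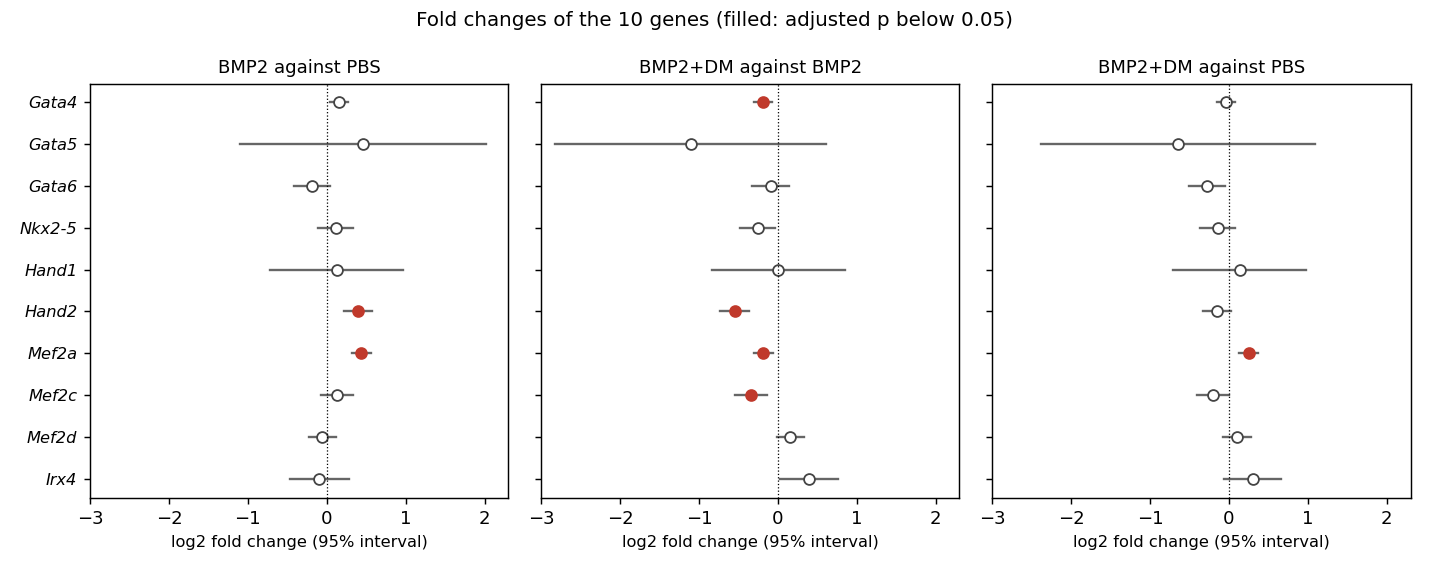
Log2 fold change of each gene in the 3 comparisons with its 95% interval (edgeR), filled where the adjusted p is below 0.05. Hand2 and Mef2a are filled in the comparison of BMP2 with PBS, Gata4, Hand2, Mef2a and Mef2c in that of BMP2+DM with BMP2, and Mef2a in that of BMP2+DM with PBS.

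Compared with PBS, cells given BMP2 and dorsomorphin together had more Mef2a, and the other 9 genes did not pass the test. The 1 of 10 called higher compares with 9.38% of all genes tested. Of the 10, 0 were called lower by edgeR or DESeq2, against 11.5% of all genes tested, and 2 were lower at an unadjusted p below 0.05. The median log2 fold change of the 10 was -0.09, beside 0.01 over all genes tested, and 7 of 10 did not overlap, as for 58.5% of all genes tested. The share called higher is near that of the whole table. Mef2a had 229.9 and 227 CPM with BMP2+DM, against 189.8 and 195 with PBS. All of its BMP2+DM values lay between those of PBS and those of BMP2 alone. The log2 fold change was 0.25 ± 0.057, or 1.19-fold (edgeR's adjusted p = 0.00378), and 13 of 14 alternatives called it. It was not called without PBS 1 and BMP2 1 (edgeR's adjusted p = 0.094), and over all alternatives the log2 fold change ran from 0.23 to 0.31.

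Hand2 had 69.6 and 74.2 CPM with BMP2+DM, against 79.3 and 80.4 with PBS. The libraries lay apart, with a log2 fold change of -0.15 ± 0.085 that was not called (edgeR's adjusted p = 0.244) and a 95% interval of -0.33 to 0.03. Mef2c, with 55.8 and 60.0 CPM with BMP2+DM against 67.2 and 66.5 with PBS, had a log2 fold change of -0.21 ± 0.096 (edgeR's adjusted p = 0.142). Gata6 had 82.6 and 63.1 CPM with BMP2+DM, against 91.9 and 84.8 with PBS, and its log2 fold change was -0.28 ± 0.11 (edgeR's adjusted p = 0.0806). This value turned on both BMP2+DM libraries. Without BMP2+DM 1 it was -0.49 and called (edgeR's adjusted p = 0.00438), and without BMP2+DM 2 it was -0.10 (edgeR's adjusted p = 0.625). Gata4 overlapped between the groups, at 244 and 236 CPM with BMP2+DM against 252 and 239 with PBS, with a 95% interval of -0.15 to 0.08 on the log2 scale. Irx4 lay higher in both BMP2+DM libraries, at 20.9 and 22 CPM with BMP2+DM against 19.9 and 14.8 with PBS, and was not called (edgeR's adjusted p = 0.248).

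Of 16 other members of these families, 8 had enough counts to be tested, and Nkx2-2, Nkx2-3, Nkx2-6 and Nkx2-9 had 0 counts in every library. Twist1 and Twist2 were listed as basic helix-loop-helix relatives of the HAND genes and are not HAND genes. The exons of Twist2 share 46.5% of their bases with Gm29100 on the opposite strand. Between BMP2 and PBS, 0 of the 8 were called higher by edgeR or DESeq2 and 0 at an unadjusted p below 0.05. Over all genes tested, 6.55% were higher and 9.29% lower, and of the 8, 1 was lower. That 1 was Irx3, an Iroquois factor of the ventricular conduction system, with 38.7 and 46.8 CPM with BMP2, against 64.9 and 73.2 with PBS, a log2 fold change of -0.69 ± 0.12. Between BMP2+DM and BMP2, 4.44% of all genes tested were lower and 4.28% higher. Of the 8, 1 was lower and 0 higher, with 3 lower and 0 higher at an unadjusted p below 0.05. The lower gene was Gata2, a blood and endothelial GATA factor, with 3.0 and 3.40 CPM with BMP2+DM against 8.54 and 7.54 with BMP2, a log2 fold change of -1.33 ± 0.27. The endothelial marker sum given above was also lower with BMP2+DM, and its part in the level of Gata2 was not tested. Between BMP2+DM and PBS, 11.5% of all genes tested were lower and 9.38% higher. Of the 8, 5 were lower, namely Gata2, Irx3, Irx5, Twist1 and Twist2. In the same comparison 0 were higher by edgeR, by DESeq2 or at an unadjusted p below 0.05. Of these 5, Gata2 and Irx3 were called on leaving out any 1 library, and the count was 2 without PBS 2 and 3 without BMP2+DM 2 or without PBS 1 and BMP2 1 together. Without those last 2 libraries, edgeR called 0 of the relatives between BMP2 and PBS, with 1 higher and 1 lower at an unadjusted p below 0.05, and 0 between BMP2+DM and BMP2, with 0 higher and 2 lower. Irx5 joined Irx3 as lower with BMP2 when BMP2 2 was left out. Mef2b, the remaining MEF2 gene, had too few counts to be tested, with 4.45 CPM in BMP2+DM 1 and 0 to 0.435 in the other 5 libraries, and was called higher with BMP2+DM without BMP2+DM 2, the 1 single-library omission that let it be called. The median log2 fold changes of the 8 were -0.08, -0.36 and -0.64 in the order of these comparisons, beside 0.00, 0.00 and 0.01 over all genes tested.

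Of the transcription partners and cofactors, 21 of 22 were tested. With BMP2 against PBS, Tbx20, Prox1, Smyd1 and Nfatc4 were higher and Myocd and Tcf4 lower, so 4 and 2 of 21. Over all genes tested, 6.55% were higher and 9.29% lower. The median log2 fold change of the 21 was -0.04. Tbx20, a T-box partner of GATA4 and NKX2-5, had 1405 and 1433 CPM with BMP2, against 785.5 and 803 with PBS, and only 680.1 and 632 with BMP2+DM. Its log2 fold change was 0.84 ± 0.054 for BMP2 against PBS and -1.11 ± 0.054 for BMP2+DM against BMP2, and it lay lower with BMP2+DM than with PBS as well. Myocd, the SRF coactivator myocardin, ran the other way, with 63.2 and 55.0 CPM with BMP2+DM, 45.2 and 34.7 with BMP2, and 84.7 and 78.7 with PBS. Its log2 fold changes were -1.03 ± 0.12 for BMP2 against PBS and 0.56 ± 0.12 for BMP2+DM against BMP2. Prox1, a homeobox factor of heart muscle structure, was higher with BMP2 than with PBS by 0.42 ± 0.11, and Smyd1, a muscle histone methyltransferase gene, by 0.22 ± 0.059. Tbx20 and Myocd were called in this comparison on leaving out any 1 library and without PBS 1 and BMP2 1. Tbx20 was the only higher partner without BMP2 2 or without PBS 1 and BMP2 1, and 2 were higher without BMP2 1, PBS 1 or PBS 2. Myocd was the only lower partner without BMP2 2 or PBS 2. Between BMP2+DM and BMP2, 1 partner was higher and 3 lower, beside 4.28% and 4.44% of all genes tested, with a median of 0.03. Besides Tbx20, the lower ones were Zfpm1, a GATA cofactor, at -0.61 ± 0.13, and Smarcd3, a cardiac chromatin remodelling subunit, at -0.31 ± 0.077. The exons of Smarcd3 share 48.2% of their bases with Chpf2 on the opposite strand. Myocd lost its call here without BMP2+DM 1 or BMP2 2, leaving 0 higher by edgeR and 1 at an unadjusted p below 0.05, and Hey2 was called higher with it without BMP2 1. Without PBS 1 and BMP2 1, Myocd was the only higher and Tbx20 the only lower partner. Between BMP2+DM and PBS, 9.38% of all genes tested were higher and 11.5% lower. Among the partners, Prox1, Smyd1 and Nfatc4 were higher and Myocd, Tbx20 and Tcf4 lower. Of these, Smyd1 and Tbx20 were called on leaving out any 1 library, and Smyd1 was the only higher one without PBS 2 and Tbx20 the only lower one without BMP2+DM 2.

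All 14 kinases and repressors that act on MEF2 proteins were tested. With BMP2 against PBS, 2 of 14 were lower, beside 9.29% of all genes tested, namely Hdac7, a class IIa histone deacetylase gene, by a log2 fold change of -0.39 ± 0.089, and Camk2d, a calcium-dependent kinase gene, by -0.21 ± 0.063. None of the 14 was called higher in that comparison by edgeR or DESeq2, and 0 were at an unadjusted p below 0.05. Over all genes tested, edgeR called 6.55% higher there. The count of 2 lower ranged from 0, without BMP2 2 or PBS 1 (with 2 and 4 lower at an unadjusted p below 0.05), to 4, without BMP2+DM 1, BMP2+DM 2 or BMP2 1, and was 1 without PBS 2 or without PBS 1 and BMP2 1 together. Between BMP2+DM and BMP2, 0 of 14 were called by edgeR or by DESeq2, with 1 higher and 1 lower at an unadjusted p below 0.05, and 2 were called lower without BMP2+DM 2. Over all genes tested, 4.28% were higher and 4.44% lower with BMP2+DM than with BMP2. Between BMP2+DM and PBS, 2 of 14, Hdac7 and Hdac5, were lower, beside 11.5% of all genes tested, by -0.67 ± 0.091 and -0.48 ± 0.10. In that comparison 0 of 14 were higher, also at an unadjusted p below 0.05, beside 9.38% of all genes tested called higher. The median log2 fold changes of the list were -0.13, 0.04 and -0.10.

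Most listed cardiac targets of GATA4 and NKX2-5 were lower with BMP2 than with PBS, with 11 of 16 lower and 2 higher. Over all genes tested, 9.29% were lower and 6.55% higher. The median log2 fold change of the 16 was -0.55, beside 0.13 for the 10 factors and 0.00 over all genes tested. The higher targets were Csrp3, a muscle LIM protein gene, at 0.70 ± 0.062, and Kcnh2, a potassium channel gene, at 0.50 ± 0.10. Without PBS 1 and BMP2 1, 7 were lower and 1 higher, and 8 to 11 were lower on leaving out single libraries. Nppb, a natriuretic peptide gene, had 70.0 and 73.1 CPM with BMP2, against 255 and 247 with PBS, a log2 fold change of -1.81 ± 0.084. Nppa, the atrial peptide gene, whose exons share 61.5% of their bases with Gm13054 on the opposite strand, had -1.19 ± 0.052. Actc1, cardiac alpha-actin, had 3159 and 3158 CPM with BMP2, against 6790 and 6723 with PBS, a log2 fold change of -1.10 ± 0.037. Ankrd1, a nuclear and sarcomeric ankyrin repeat protein gene, had -0.98 ± 0.047. In the same comparison 7 of 8 cardiomyocyte, 5 of 8 fibroblast and 6 of 8 epicardial markers were lower, and their part in the targets was not tested. Myh6 and Tnni3 are both targets and cardiomyocyte markers. Mef2c, itself 1 of the 10 factors, is among the targets.

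With BMP2+DM against BMP2, 5 of the 16 targets were higher and 1, Mef2c, was lower, with a median of 0.06. In this comparison 4.28% of all genes tested were higher and 4.44% lower. As given above, the call of Mef2c was lost on leaving out any 1 library, and Kcnh2 was the 1 lower target without BMP2+DM 2. Actc1, Nppa and Nppb were called higher on leaving out any 1 library and were the only 3 without BMP2 2. Nppb had 110.5 and 134 CPM with BMP2+DM, against 70.0 and 73.1 with BMP2, a log2 fold change of 0.77 ± 0.086. Actc1 was higher by 0.41 ± 0.037, Nppa by 0.28 ± 0.052 and Slc8a1, the sodium-calcium exchanger gene, by 0.24 ± 0.052. With BMP2+DM against PBS, 11.5% of all genes tested were lower and 9.38% higher. Of the 16 targets, 10 were lower and 1, Csrp3, was higher, also without PBS 1 and BMP2 1, with a median of -0.53. The same 10 were lower on leaving out any 1 library, and Kcnh2 was also higher without BMP2+DM 1.

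**Figure D4:**
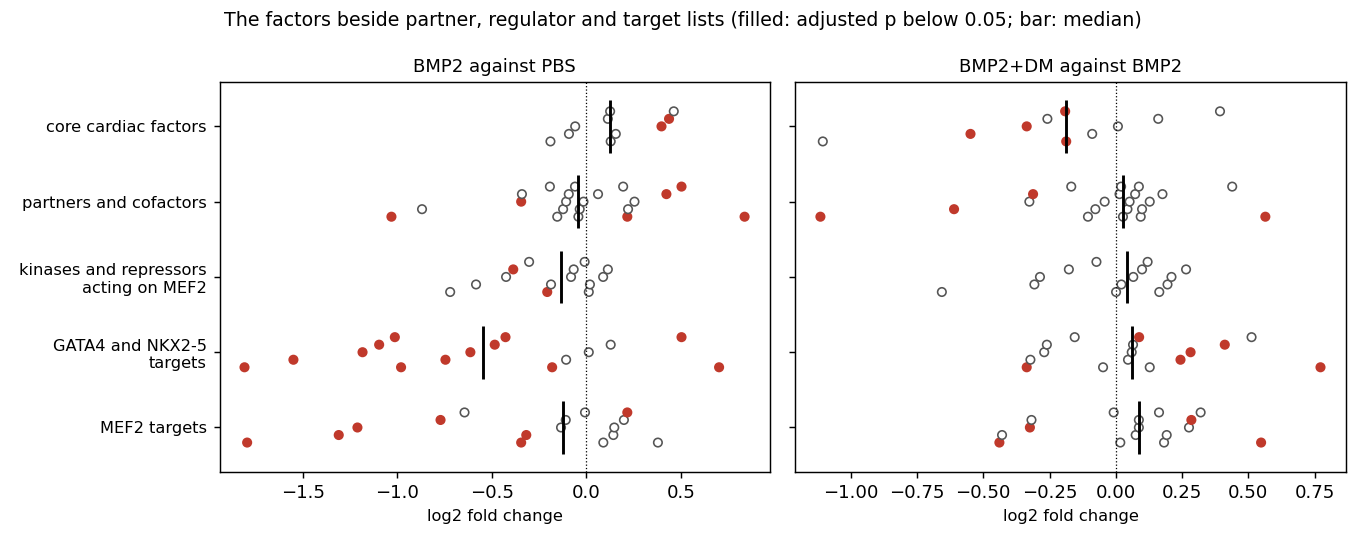
Log2 fold change of the 10 factors and of 4 lists of partners, MEF2 regulators and targets (rows), for BMP2 against PBS (left) and BMP2+DM against BMP2 (right), filled where the adjusted p is below 0.05, with the list median as a bar. The medians for BMP2 against PBS are 0.13 for the factors and -0.55 for the GATA4 and NKX2-5 targets, beside 0.00 over all genes tested.

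Of the listed MEF2 targets, more were called lower than higher against PBS, with BMP2 alone and with BMP2+DM. With BMP2 against PBS, 6 of 16 were lower, beside 9.29% of all genes tested, with a median log2 fold change of -0.12. Only 1, Smyd1, which is also among the partners, was higher, beside 6.55% of all genes tested. Smyd1 lost its call without BMP2 1, BMP2 2 or PBS 2. Lmod2, an actin filament nucleator gene of the sarcomere, had 77.1 and 70.0 CPM with BMP2, against 172 and 169 with PBS, a log2 fold change of -1.21 ± 0.079. Xirp2, a gene of an intercalated disc protein, had -1.31 ± 0.14, and Klf2, a gene of an endothelial flow response factor, had -1.80 ± 0.27. Myl2, a myosin light chain gene that is also a cardiomyocyte marker, had a smaller change of -0.32 ± 0.053. The part of the marker shifts given above in these targets was not tested. With BMP2+DM against BMP2, 2 were higher and 2 lower, beside 4.28% and 4.44% of all genes tested, with a median of 0.09. The higher ones were Klf4 at 0.55 ± 0.15 and Lmod2 at 0.28 ± 0.081, and the lower ones were Hrc, a calcium-binding protein gene of the sarcoplasmic reticulum, at -0.44 ± 0.12, and Hspb7, a small heat shock protein gene, at -0.32 ± 0.060. The higher count was 0 without BMP2+DM 1 or BMP2+DM 2 (with 4 and 2 at an unadjusted p below 0.05) and 1 without any of the other 4 libraries, and Hspb7 was the only lower one on leaving out any 1 library or with DESeq2, which called 0 higher. Without PBS 1 and BMP2 1 together, 0 of the 16 were called in this comparison, with 3 higher and 2 lower at an unadjusted p below 0.05, and 4 lower and 0 higher for BMP2 against PBS. With BMP2+DM against PBS, 8 of 16 were lower and 4 higher, beside 11.5% and 9.38% of all genes tested. The higher ones were Dtna, Pgam2, Ppargc1a and Smyd1, of which Ppargc1a and Smyd1 were called without BMP2+DM 2 and Smyd1 alone without PBS 1 and BMP2 1.

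Hand2 and Mef2a have the largest called changes of the 10, and the genes nearest to them in pattern over the 6 libraries were looked up among 11090 tested genes. The measure is the Euclidean distance between log2 CPM centred on each gene's mean, where a smaller value means a closer pattern. Nearest to Hand2 were Mak16 at 0.10, Slc25a25 at 0.11 and Galnt7 at 0.14, where the pattern of Hand2 itself has a length of 0.57. Mak16 had 51.5 and 55.8 CPM with BMP2+DM, 72.2 and 76.1 with BMP2, and 57.1 and 56.6 with PBS, so it was high in the same 2 libraries as Hand2. Nearest to Mef2a were Pitpnm2 at 0.07, Snn at 0.08 and Fem1b at 0.08, beside a length of 0.44 for Mef2a. Fem1b had 109.5 and 114 CPM with BMP2+DM, 119 and 126 with BMP2, and 90.8 and 91.8 with PBS. Its groups follow the order of Mef2a, with PBS lowest and BMP2 highest.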

How the data were processed

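Polyadenylated RNA of 6 libraries, 2 per group, was analysed. The deposited values are raw counts of reads on each gene symbol. The submitters' processing notes list the genome build mm10 and the tools STAR, HTSeq, Trimmomatic, FastQC and DESeq2. The sources used here give no versions, annotation or strand setting, and the library protocol in the labels names no strand-marking step. Summary lines that name no gene held 53.8% to 54.2% of each file and were left out. Among them, reads with no feature held 49.7% to 50.1% of each file and ambiguous reads 0.133% to 0.138%. Whether these shares come from the strand setting was not tested.

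All 6 libraries were fitted with group means in edgeR 4.0.16 (R 4.3.3), with TMM factors, filterByExpr (minimum count 10, minimum total 15), the quasi-likelihood F test and Benjamini-Hochberg adjustment over 14378 genes, leaving 3 residual degrees of freedom. The tests and the 95% intervals add to these the prior degrees of freedom that edgeR borrows across genes. All 10 factor genes passed the filter. Standard errors are the absolute log2 fold change over the square root of F. CPM are counts divided by library sizes with TMM factors. Exon lengths and positions come from GENCODE vM21, which held 97.5% of the symbols. The fit was run on counts simulated from its own dispersions, with changes of 1.5-fold or more. The called changes of the factors were smaller, so this run does not show how well changes of their size are found. Alternatives were DESeq2 1.42.0, other scalings, no count filter, a replicate block, 2-group fits, removal of ribosomal-repeat genes, and libraries left out. With 2 against 2 libraries an exact permutation test cannot go below 0.333, so none is given.

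The genes and lists were chosen with earlier results of these data known. Named were all 10 factors, up to 4 genes with the smallest p per list and comparison, and the 3 genes nearest in pattern to the 2 called factors with the largest change, since none reached 1.5-fold. Twist1, Nfatc4, Tcf4, Hey2, Csrp3, Kcnh2, Dtna, Pgam2, Ppargc1a and the untested relatives were named after their values were seen.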

Additional observations from a re-analysis of the deposited data

How the results depend on the processing

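Of 418 values of the 10 genes under 14 alternatives, 368 kept direction and side of the threshold, 31 lost a call, 3 gained one and 16 reversed, of which 0 belonged to the 7 called values. For BMP2 against PBS, 2 of 10 genes were called, and 1 without PBS 1 and BMP2 1. For BMP2+DM against BMP2, the 4 called became 1 with library totals, DESeq2 or without PBS 1 and BMP2 1, 2 with ribosomal-repeat genes removed, and 1 to 2 without single libraries. For BMP2+DM against PBS, the 1 called became 2 with no count filter, 0 without PBS 1 and BMP2 1, and 1 to 2 without single libraries. Over all genes, the numbers called without PBS 1 and BMP2 1 were 574, 313 and 1388, against 2277, 1255 and 3007 with all libraries, and without single libraries 1318 to 2470, 670 to 1081 and 1827 to 2928. Fewer libraries enter those fits, and otherwise the cause was not tested. With library totals, the higher and lower calls were 1166 and 1202, 749 and 553, and 1843 and 1376, against 942 and 1335, 616 and 639, and 1349 and 1658.

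Same-numbered libraries were not shown to be paired, since their deviations correlated at -0.038, -0.023 and 0.025. With the replicate block, 2, 3 and 1 of the 10 genes and 2261, 1226 and 2960 genes in all were called, and Mef2a lost its call for BMP2+DM against BMP2 (edgeR's adjusted p = 0.0573).

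Without PBS 1 and BMP2 1, log2 fold changes were 0.014 for Mef2d and 0.23 for Irx4 (BMP2 against PBS), -0.27 for Hand1 (BMP2+DM against BMP2), and 0.004 for Gata4 and 0.72 for Gata5 (BMP2+DM against PBS). Gata4 was 0.021 there with library totals. Without single libraries, BMP2 against PBS ran from -0.32 to 1.83 for Gata5, -0.21 to 0.40 for Hand1 and -0.28 to 0.14 for Irx4. BMP2+DM against BMP2 ran from -0.30 to 0.094 for Gata6 and -0.27 to 0.35 for Hand1. BMP2+DM against PBS ran from -0.073 to 0.004 for Gata4, -1.28 to 0.72 for Gata5 and -0.029 to 0.22 for Mef2d. Depth limits Gata5, with 4 to 20 counts per library, and Hand1, with 26 to 40.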
